A study of Mus musculus with 9 samples.

Results

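The genes that encode the writers and erasers of DNA methylation were followed in mouse embryonic stem cells (mESC) across 3 culture media. They comprise *Dnmt1*, *Dnmt3a*, *Dnmt3b*, *Dnmt3l*, *Tet1*, *Tet2*, *Tet3*, *Uhrf1* and *Tdg*, that is 9 of the 29069 genes in the deposited expression table, and each was found there under its symbol. The set was chosen from the measured values of earlier work on these same libraries, so the differences of the 9 genes between media are described with their errors and are not tested. The cells were of the D3 line, an established mESC line grown without feeder cells, and they were collected after 24 h of culture. GS is a serum-free N2B27 medium with LIF at 20 ng/mL and inhibitors of MEK (PD0325901, 1 μM) and of GSK3 (CHIR99021, 3 μM), and it holds mESC in the naive ground state. DM is DMEM with 10% fetal bovine serum and lacks LIF and both inhibitors, so that DM and GS differ in the basal medium, the serum, LIF and the inhibitors at the same time, and the effects of these cannot be told apart. NO is DM with 250 μM of DETA/NO, a donor that releases nitric oxide, so that NO and DM differ in the donor alone. There were 3 libraries of total RNA per medium, each from a dish of its own and all from this 1 line, and p-values measure the spread between these samples, which the labels do not tie to separate cultures, although the study describes its values in general as coming from independent experiments.

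In mammals, a methyl group is placed on the cytosine of CpG dinucleotides by DNA methyltransferases. *Dnmt3a* and *Dnmt3b* encode the de novo enzymes, and *Dnmt3l* encodes a cofactor without catalytic activity that stimulates both. After replication, the maintenance enzyme encoded by *Dnmt1* copies the mark to the new strand, guided by the product of *Uhrf1*, which recognises hemimethylated CpG. The TET dioxygenases, encoded by *Tet1*, *Tet2* and *Tet3*, oxidise 5-methylcytosine, and the glycosylase encoded by *Tdg* excises the more oxidised forms so that base excision repair can restore cytosine. Ground-state mESC are known for low global methylation and for gaining it on exit from that state. Only RNA was measured here, and DNA methylation itself was not analysed.

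The sequences upstream of the 3 de novo genes are shown because these genes stood out in DM and their upstream regions differ in CpG content. They are the 250 bases before a RefSeq start site on GRCm38.p6, all 3 on the plus strand, written 5′ to 3′ with each CpG in capitals, at chr2:153649199-153649448 for *Dnmt3b*, at chr12:3891494-3891743 for the downstream start site of *Dnmt3a* within the gene, and at chr10:78042037-78042286 for the most upstream start site of *Dnmt3l*.
Dnmt3b: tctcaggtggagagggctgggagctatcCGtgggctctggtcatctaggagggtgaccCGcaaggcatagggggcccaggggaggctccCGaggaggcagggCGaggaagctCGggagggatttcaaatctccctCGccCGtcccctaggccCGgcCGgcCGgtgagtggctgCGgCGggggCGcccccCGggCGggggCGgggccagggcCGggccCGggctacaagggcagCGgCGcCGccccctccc
Dnmt3a: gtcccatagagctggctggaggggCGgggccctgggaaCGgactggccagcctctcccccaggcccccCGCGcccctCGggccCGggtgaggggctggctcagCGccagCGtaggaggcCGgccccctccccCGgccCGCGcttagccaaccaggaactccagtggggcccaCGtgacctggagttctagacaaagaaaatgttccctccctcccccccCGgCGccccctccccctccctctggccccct
Dnmt3l: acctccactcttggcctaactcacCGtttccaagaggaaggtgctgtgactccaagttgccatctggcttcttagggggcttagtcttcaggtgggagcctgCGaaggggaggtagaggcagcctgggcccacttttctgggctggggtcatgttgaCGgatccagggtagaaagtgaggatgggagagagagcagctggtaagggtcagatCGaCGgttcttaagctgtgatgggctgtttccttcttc

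All 9 genes matched the RefSeq promoter table, with 16 windows in all. The *Dnmt3b* window held 21 CpG and the *Dnmt3a* window 15, whereas the *Dnmt3l* window held 5, against a median of 6 over the 32851 windows of the table. The other windows of *Dnmt3l* held 4 and 3 CpG, and the more upstream windows of *Dnmt3a* held 38 and 40. The single windows of *Tet2*, *Tet3*, *Tdg* and *Tet1* held 51, 17, 19 and 15 CpG, the windows of *Uhrf1* held 10 and 30, and those of *Dnmt1* held 26, 7 and 2. *Dnmt3l* was thus the only one of the 9 genes with no window above the median. The E-box CACCTG, the core of the site recognised by Zeb1, was searched on both strands and was present in 2 of the 16 windows (12.5%), against 17.2% of all windows. These 2 are the *Dnmt3b* and *Dnmt3l* windows printed above, which hold it as CAGGTG on the strand shown. The E2F-type motif TTTNNCGC, searched in the same way, was present in 3 of the 16 windows (18.8%), 1 of *Dnmt1* and both of *Uhrf1*, against 4.28% of all windows. No window of the 9 genes held both motifs, and a match describes these letters only.

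The values are read counts per gene that the authors normalised for depth and rounded to whole numbers, here called normalised counts. Their totals lay between 18290445 and 20508679 per library, and the assigned reads estimated from the spacing of low values between 14310806 and 27064952, with 1 read worth 0.701 to 1.32 normalised counts. The 9 genes together made up 0.243% to 0.365% of a library. All 10 embryonic stem cell markers, such as *Pou5f1* and *Nanog*, were above 0 in every library, with a summed level of 85705 to 89741 in GS, 85180 to 95955 in DM and 50925 to 85215 in NO. The lowest of these sums was NO replicate 2, which also stood apart in markers of other states. The 7 measured two-cell-like markers (the *Zscan4* group and others) summed to 36 to 50 in GS and 46 to 58 in DM, but to 129, 915 and 267 in NO replicates 1 to 3. The 7 primitive endoderm markers summed to 145 to 205 in GS, 113 to 197 in DM and 230, 709 and 351 in NO replicates 1 to 3, and the 7 mesoderm markers to 306 to 355, 125 to 155 and 248, 912 and 402. Members of the mesoderm list went both ways. *Wnt3* stood at 8, 8 and 4 in GS and 38, 581 and 162 in NO, whereas *T* stood at 137, 183 and 131 in GS and 8, 28 and 22 in NO. The 7 trophoblast markers summed to 1567 to 1755 in GS, 1274 to 1372 in DM and 1341 to 1590 in NO, the 6 neuroectoderm markers to 1431 to 1850, 1446 to 1576 and 1115 to 1412, and the 8 fibroblast markers to 318 to 496, 412 to 447 and 381 to 406. The trophoblast sum hides opposite changes. *Krt7*, *Hand1* and *Gata3* had means of 7.67, 3.67 and 31.3 in GS and 232, 51.7 and 67.0 in NO, each highest in NO replicate 2. *Cdx2*, *Eomes*, *Tead4* and *Elf5* had means of 58.3, 278, 1283 and 7.33 in GS and 7.33, 99.7, 966 and 6.67 in NO. Other sums hide opposite changes too. *Nanog* and *Klf4* had means of 13897 and 3328 in GS and 7975 and 2209 in DM. *Utf1* and *Lin28a* had means of 895 and 2626 in GS and 4048 and 4340 in DM. *Pax6* and *Zic1* had means of 11.3 and 1.67 in DM and 2.00 and 21.3 in NO. *Thy1* and *Pdgfrb* had means of 59.3 and 288 in GS and 196 and 189 in DM. *Neurog2* was at 0 in all GS libraries and *Postn* in all DM libraries. In bulk RNA, fewer cells of a type and less RNA per cell cannot be told apart. Values of the 9 genes that rest on NO replicate 2 are therefore given with and without it, and the part of these markers in them was not tested.

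The de novo genes were higher after 24 h in DM than in GS, and all 3 were lower in NO than in DM. *Dnmt3a* (chr12:3806007-3914443, plus strand, GRCm38) stood at 1146, 1103 and 1009 normalised counts in the GS libraries, 4391, 3872 and 4148 in the DM libraries and 1859, 1225 and 1328 in the NO libraries. The groups did not overlap in any pair, with DM far above both others and NO just above GS. Differences are given as log2 fold changes of (normalised count + 1) with the standard error (SE) of the fit. That of *Dnmt3a* was 1.93 ± 0.16 in DM against GS, or 3.81-fold, -1.51 ± 0.16 in NO against DM, or 2.86-fold lower, and 0.41 ± 0.16 in NO against GS (0.23 ± 0.14 without NO replicate 1). Counts per gene do not separate the long isoform from the shorter one that starts downstream. A noncoding antisense gene, *Dnmt3aos*, overlaps 0.80% of the exonic bases of *Dnmt3a*, and use of strand in counting was not stated.

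*Dnmt3b* (chr2:153649450-153687730, plus strand) stood at 2201, 2649 and 2202 normalised counts in the GS libraries, 4402, 3939 and 4389 in the DM libraries and 2528, 2041 and 2103 in the NO libraries. The DM libraries stood above all others, while GS and NO overlapped. The log2 fold change was 0.86 ± 0.14 in DM against GS (1.81-fold), -0.94 ± 0.14 in NO against DM (1.91-fold lower) and -0.08 ± 0.14 in NO against GS. Without NO replicate 1, the difference between NO and DM was -1.03 ± 0.14.

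*Dnmt3l* (chr10:78041947-78063622, plus strand) stood at 2943, 3815 and 3298 normalised counts in the GS libraries, 12314, 10411 and 10297 in the DM libraries and 5805, 6954 and 6817 in the NO libraries. The 3 media were fully separated, with NO between GS and DM, unlike *Dnmt3b*, whose NO libraries lay within or just below the range of GS. The log2 fold change was 1.72 ± 0.15 in DM against GS (3.29-fold), 0.96 ± 0.15 in NO against GS (1.95-fold) and -0.75 ± 0.15 in NO against DM (1.69-fold lower). The value for NO against GS lay near the fold threshold used below and was 1.06 without GS replicate 2 and 1.05 without NO replicate 1. Exons of *Aire* on the minus strand overlap 2.24% of the exonic bases of *Dnmt3l*.

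**Figure D1:**
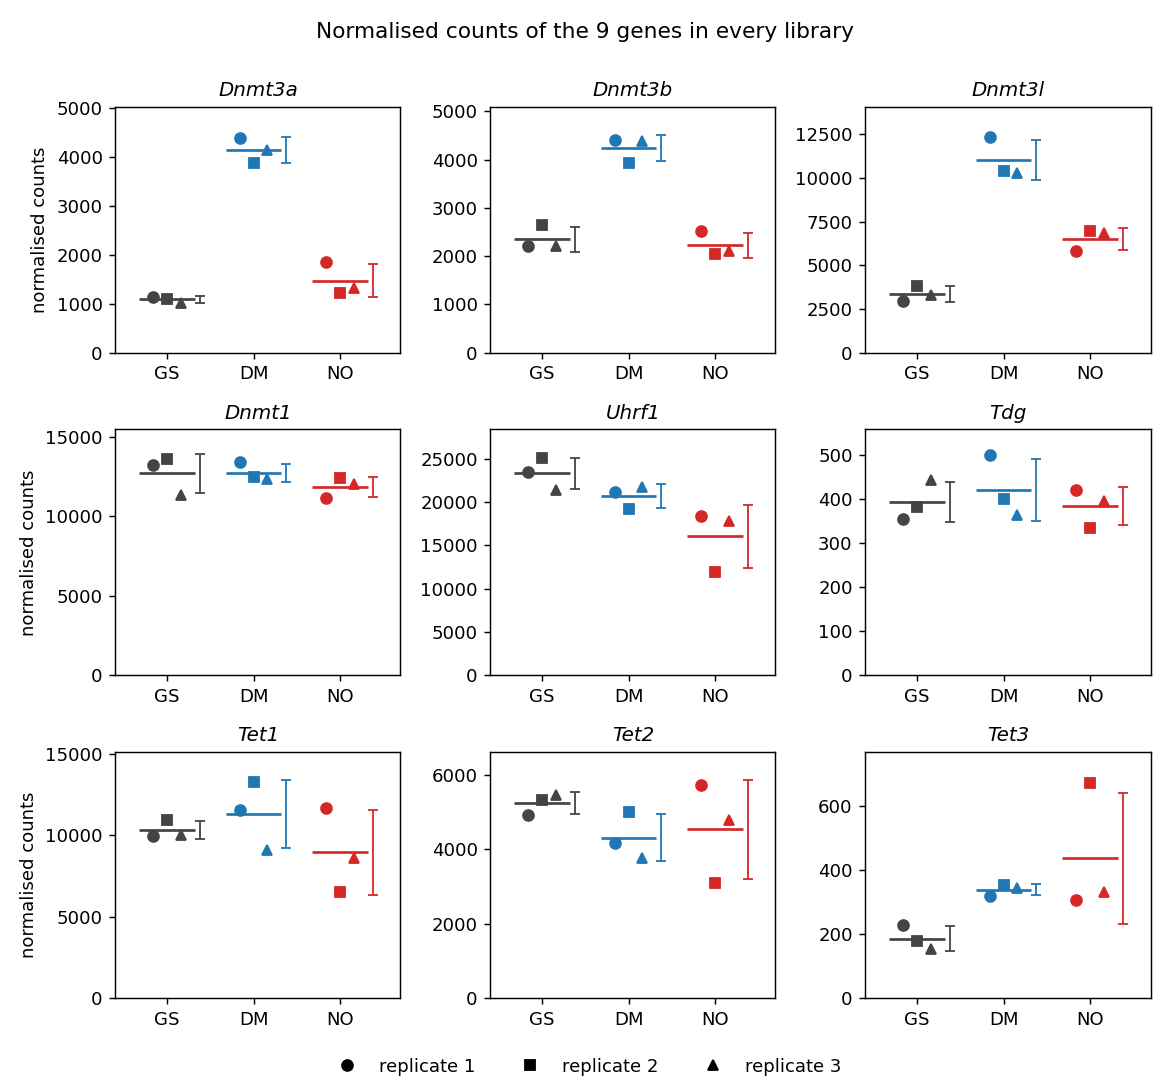
Normalised counts (vertical axis, from 0, a scale of its own per gene) of the 9 genes in the 9 libraries, by medium. Points are libraries with a symbol per replicate, bars are means and whiskers are ± SD (n = 3). *Dnmt3a*, *Dnmt3b* and *Dnmt3l* stand highest in DM, *Dnmt1* and *Tdg* overlap across media, and NO replicate 2 is the lowest of all libraries for *Tet1*, *Tet2* and *Uhrf1* and the highest for *Tet3*.

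The maintenance pair did not share this pattern. *Dnmt1* (chr9:20907209-20959888, minus strand) stood at 13212, 13605 and 11329 normalised counts in the GS libraries, 13406, 12479 and 12378 in the DM libraries and 11182, 12393 and 12030 in the NO libraries. All 3 media overlapped, and the log2 fold changes were 0.01, -0.10 and -0.10 (SE 0.13) in DM against GS, NO against GS and NO against DM, each with a sign that differed among the alternatives to the fit. *Uhrf1* (chr17:56303321-56323486, plus strand) stood at 23448, 25021 and 21351 normalised counts in the GS libraries, 21168, 19163 and 21713 in the DM libraries and 18410, 11866 and 17772 in the NO libraries. The NO libraries lay below all others, and GS and DM overlapped. The log2 fold change was -0.17 ± 0.18 in DM against GS, -0.56 ± 0.18 in NO against GS (1.48-fold lower) and -0.39 ± 0.18 in NO against DM. Without NO replicate 2 the latter 2 were -0.36 ± 0.14 and -0.19 ± 0.14, and with quantile normalisation -0.24 and -0.14. A pseudogene, *Gm5648*, matches 44.3% of the longest *Uhrf1* transcript at 98.3% identity, and reads that map equally to both would have been dropped.

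The TET genes differed from one another. *Tet1* (chr10:62804570-62908996, minus strand) stood at 9965, 10917 and 9988 normalised counts in the GS libraries, 11520, 13242 and 9095 in the DM libraries and 11657, 6510 and 8622 in the NO libraries. *Tet2* (chr3:133463679-133545139, minus strand) stood at 4926, 5343 and 5476 in the GS libraries, 4165, 5004 and 3761 in the DM libraries and 5734, 3096 and 4795 in the NO libraries. For both genes the media overlapped in every pair, and NO replicate 2 was the lowest of the 9 libraries. The log2 fold changes of *Tet1* were 0.12, -0.24 and -0.36 (SE 0.21) in DM against GS, NO against GS and NO against DM, and the latter 2 were -0.04 and -0.15 (SE 0.18) without NO replicate 2, but -0.46 and -0.57 (SE 0.19) without NO replicate 1, the highest NO library. Those of *Tet2* were -0.29, -0.25 and 0.04 (SE 0.20), and the latter 2 were 0.00 and 0.29 (SE 0.15) without NO replicate 2 and -0.44 and -0.15 (SE 0.19) without NO replicate 1.

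*Tet3* (chr6:83362373-83459084, minus strand), the TET gene best known from the oocyte and zygote, stood at 227, 178 and 153 normalised counts in the GS libraries, 320, 354 and 343 in the DM libraries and 308, 673 and 331 in the NO libraries. All DM and NO libraries lay above all GS libraries, and DM and NO overlapped, with NO replicate 2 the highest of all. The log2 fold change was 0.88 ± 0.27 in DM against GS (1.84-fold), 1.15 ± 0.27 in NO against GS (2.22-fold) and 0.27 ± 0.27 in NO against DM. Without NO replicate 2 the difference between NO and GS was 0.80 ± 0.19, close to that between DM and GS, and the difference between NO and DM was -0.08 ± 0.19. *Tdg* (chr10:82629828-82650799, plus strand) stood at 356, 383 and 445 normalised counts in the GS libraries, 500, 401 and 364 in the DM libraries and 421, 336 and 396 in the NO libraries. The media overlapped in every pair, with log2 fold changes of 0.09, -0.04 and -0.13 (SE 0.17). The level of *Tdg* is uncertain, since the pseudogene *Tdg-ps* matches 84.8% of its longest transcript at 98.7% identity, further copies match 34.1%, and exons of *Glt8d2* on the other strand overlap 6.83% of its exonic bases. One of these copies, *Gm9855*, was listed at 489 to 1005 normalised counts, above *Tdg* in each library.

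A gene was called when its adjusted p-value (limma, Benjamini-Hochberg over 18156 genes with a mean above 5) was under 0.05 and its log2 fold change was at least 1 in size. All 9 genes passed the filter on the mean. The calls of the 9 genes are a description, since the fit rests on the values that chose them. In DM against GS, 2 of the 9 were called higher (*Dnmt3a* and *Dnmt3l*), beside 2.94% of all genes tested, and none lower, beside 1.27%. In NO against GS, 1 was called higher (*Tet3*), beside 10.1% of all genes, and none lower, beside 1.64%. In NO against DM, 1 was called lower (*Dnmt3a*), beside 1.77%, and none higher, beside 6.78%. The call of *Tet3* was lost without NO replicate 2 or without GS replicate 3 (log2 fold change of 1.02), and those of *Dnmt3a* and *Dnmt3l* held under all 18 alternatives to the fit. These alternatives leave the fold threshold unchanged. Counted by separation of the 3 libraries of one medium from the 3 of another, 4 genes were higher in DM than in GS (*Dnmt3a*, *Dnmt3b*, *Dnmt3l* and *Tet3*), as were 16.2% of all genes, and 0 were lower, as were 13.5%. In NO against GS, 3 were higher (*Dnmt3a*, *Dnmt3l* and *Tet3*), beside 20.9%, and 1 was lower (*Uhrf1*), beside 18.3%. In NO against DM, 4 were lower (*Dnmt3a*, *Dnmt3b*, *Dnmt3l* and *Uhrf1*), beside 15.3%, and 0 were higher, beside 18.1%. Comparisons that share a medium share its libraries. The median log2 fold change of the 9 genes was 0.12, -0.08 and -0.36 in DM against GS, NO against GS and NO against DM, and that of all genes tested 0.00, -0.02 and 0.00.

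**Figure D2:**
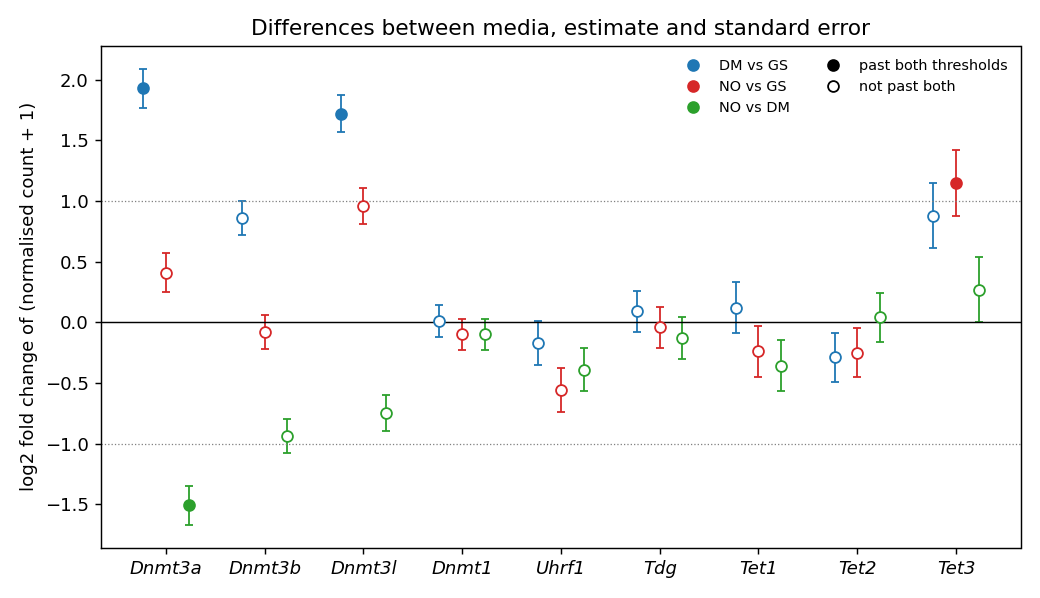
Log2 fold changes of (normalised count + 1) of the 9 genes in the 3 comparisons, with ± SE of the fit. Filled points passed both thresholds, and dotted lines mark a log2 fold change of 1 in either direction. The filled points are *Dnmt3a* and *Dnmt3l* in DM against GS, *Dnmt3a* in NO against DM and *Tet3* in NO against GS.

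Levels were compared between genes as normalised counts per kb of annotated exon. Those of *Tdg* and *Uhrf1* are uncertain, since reads that map equally to their near copies would have been dropped. Their places and shares carry this limit. In GS the order was *Uhrf1* (5465 ± 432, SD, n = 3), *Dnmt1* (1724 ± 165), *Dnmt3l* (1122 ± 147), *Tet1* (666 ± 35.1), *Dnmt3b* (460 ± 50.6), *Tet2* (311 ± 17.0), *Tdg* (73.4 ± 8.49), *Dnmt3a* (65.3 ± 4.21) and *Tet3* (11.1 ± 2.26). Neighbours in this order did not overlap over the 3 libraries except *Tdg* and *Dnmt3a*. In DM, *Dnmt3l* (3684 ± 379) stood above *Dnmt1* (1729 ± 76.8) and *Dnmt3a* (249 ± 15.6) above *Tdg* (78.5 ± 13.1). *Dnmt3b* (831 ± 51.6) and *Tet1* (730 ± 135) overlapped there, as did *Tet2* (256 ± 37.6) and *Dnmt3a*. In NO, *Dnmt3l* (2184 ± 210) remained above *Dnmt1* (1609 ± 84.3), whereas *Tet1* (578 ± 167) and *Dnmt3b* (436 ± 51.9) overlapped, as did *Dnmt3a* (88.4 ± 20.4) and *Tdg* (71.5 ± 8.13). *Uhrf1* had the highest mean (4856 ± 315 in DM and 3761 ± 847 in NO) and *Tet3* the lowest (20.3 ± 1.04 and 26.2 ± 12.2) in every medium. With the longest transcript as the length, *Dnmt3l* came before *Uhrf1* in DM and *Tet2* before *Dnmt3b* in GS, and the other places in the 3 orders were kept.

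**Figure D3:**
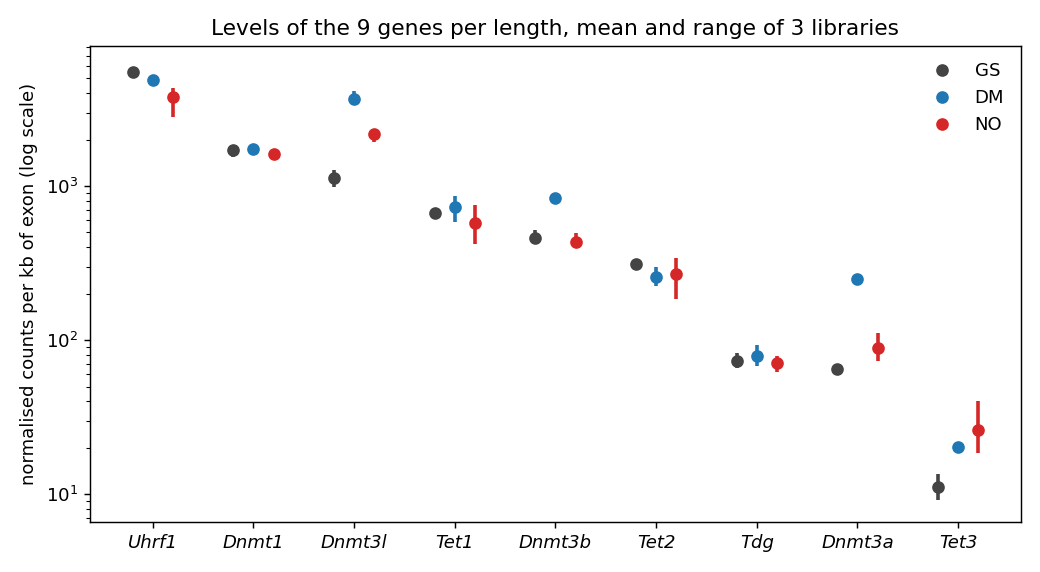
Normalised counts per kb of annotated exon (log axis) of the 9 genes by medium, ordered by the mean in GS. Points are means and lines span the lowest to the highest of 3 libraries. *Dnmt3l* passes *Dnmt1* in DM and NO, and *Dnmt3a* passes *Tdg*, whose level is uncertain, in DM.

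Ratios within a library do not depend on the scaling between libraries. Of the summed level per kb of the 9 genes, *Dnmt3a*, *Dnmt3b* and *Dnmt3l* together took 16.6 ± 1.28% in GS (SD, n = 3), 38.3 ± 1.46% in DM and 30.3 ± 4.37% in NO. *Uhrf1* and *Dnmt1* together took 72.6 ± 1.70%, 53.0 ± 2.10% and 59.3 ± 2.87%, and the TET genes 10.0 ± 0.553%, 8.12 ± 1.57% and 9.59 ± 1.82%. The share of the de novo genes was thus separated between all 3 media, and that of the TET genes overlapped. Among the de novo genes, the ratio of *Dnmt3b* to *Dnmt3a* per kb was 6.26, 7.83 and 7.11 in GS, 3.27, 3.32 and 3.45 in DM, and 4.43, 5.43 and 5.16 in NO. The ratio of *Dnmt3l* to *Dnmt3b* was 2.29, 2.46 and 2.56 in GS, 4.78, 4.52 and 4.01 in DM, and 3.92, 5.82 and 5.54 in NO. The first ratio was separated between the 3 media and the second was higher in DM and NO than in GS, with DM and NO overlapping, so the 3 genes did not keep fixed proportions. The ratio of *Tet1* to *Tet2* was 2.21, 2.23 and 1.99 in GS, 3.02, 2.89 and 2.64 in DM, and 2.22, 2.30 and 1.96 in NO. All DM libraries lay above all GS and NO libraries in this ratio, and NO replicate 2, where both genes were lowest, did not stand apart in it. The ratio of *Uhrf1* to *Dnmt1* was 3.07, 3.19 and 3.26 in GS, 2.74, 2.66 and 3.04 in DM, and 2.85, 1.66 and 2.56 in NO, the lowest again in NO replicate 2.

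The genes most like each of the 9 were sought among 11110 protein-coding genes with a mean above 50, by Pearson r of log2(normalised count + 1) over the 9 libraries. The r is a description over 3 media, in which any gene with a like order of media scores high. *Podxl*, which encodes the sialomucin podocalyxin, came first for *Dnmt3a* (r = 0.991), with means of 748 (GS), 1817 (DM) and 881 (NO) normalised counts. It was followed by *Dis3l* (0.989) and *Gatsl3* (0.987). For *Dnmt3b* the closest were *Phf21a* (0.971), *E2f8* (0.970), an atypical E2F repressor, and *Elac2* (0.970). For *Dnmt3l* they were *Mkrn1* (0.991), *Soga3* (0.985) and *Zfp532* (0.982). The closest to *Tet3* were *Top1mt* (0.989), *Trerf1* (0.989) and *Plcg1* (0.983), and to *Uhrf1* they were *Ebp* (0.990), a sterol isomerase, *Crcp* (0.986) and *Tlcd1* (0.980). The first-placed genes of *Tet1*, *Tet2*, *Dnmt1* and *Tdg*, whose media overlapped, were *Phka1* (0.950), *Mob3c* (0.920), *Tmem109* (0.949) and *Hmox2* (0.969). No gene came among the closest 3 of more than 1 of the 9.

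Other genes were taken from 8 lists with 100 genes, of which 99 were tested. Some lists hold genes of the pathway (readers, repair, regulators and methyl donor metabolism). The others hold germline, DNA replication, mitosis and formative pluripotency genes. In DM against GS, 10 of the 99 were called, beside 4.20% of all genes tested, in NO against GS 13, beside 11.7%, and in NO against DM 11, beside 8.55%. Of the calls in DM against GS, the formative list gave 7 and the germline list 1. In NO against GS, the germline list gave 7, and the formative list 2 higher and 1 lower. In NO against DM, the germline list gave 6 and the formative list 5, and none came from a pathway list. The totals therefore do not describe the pathway lists. The moderated F test over the 3 media (limma) gave an adjusted p-value under 0.05 for 33 of the 99, beside 23.3% of all genes. None of the 8 readers of methylated DNA (the *Mbd* genes and others) was called in any comparison, with log2 fold changes from -0.77 to 0.66. Of these, *Uhrf2*, the paralogue of *Uhrf1*, stood at 959, 974 and 1057 normalised counts in the GS libraries, 1212, 1181 and 1043 in the DM libraries and 1052, 895 and 1021 in the NO libraries, and its media overlapped in every pair. None of the 12 genes of methyl donor and ketoglutarate metabolism (such as *Mat2a*, which makes S-adenosylmethionine, and *Idh1*) was called either, with log2 fold changes from -0.56 to 0.17.

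Of 13 genes of base excision repair and demethylation, 1 was called. *Gadd45a*, a stress-induced gene that has been linked to active demethylation, stood at 69, 101 and 82 normalised counts in the GS libraries, 259, 221 and 195 in the DM libraries and 243, 449 and 246 in the NO libraries. It rose in DM against GS (log2 fold change 1.42 ± 0.26, adjusted p = 0.00645, limma with Benjamini-Hochberg adjustment) and in NO against GS (1.84 ± 0.26, adjusted p = 0.00111), and these calls held under all 18 alternatives. The log2 fold change in NO against DM was 0.42 ± 0.26 (adjusted p = 0.291). The glycosylase gene *Mbd4* had values within 849 to 1138 in all libraries, and its media overlapped. The medians of this list were 0.14, -0.15 and -0.13 in DM against GS, NO against GS and NO against DM.

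Of 14 regulators of the methylation machinery, *Dppa3* was the one called in DM against GS. *Dppa3*, which encodes Stella, a protein that limits maintenance methylation by binding the product of *Uhrf1*, stood at 236, 160 and 250 normalised counts in the GS libraries, 81, 42 and 48 in the DM libraries and 48, 10 and 25 in the NO libraries. It fell in DM against GS (log2 fold change -1.93 ± 0.47, adjusted p = 0.0303, limma with Benjamini-Hochberg adjustment) and in NO against GS (-3.14 ± 0.47, adjusted p = 0.00136). The first call was lost without GS replicate 1, 2 or 3 or DM replicate 2 or 3 (-2.13 to -1.74), with no minimum mean (adjusted p = 0.0509, limma) and without a trend (adjusted p = 0.0736, limma), and the second held under all 18 alternatives. In NO against DM the log2 fold change was -1.21 ± 0.47 (adjusted p = 0.103, limma), and it passed when replicate numbers were blocked (adjusted p = 0.0398, limma) and without NO replicate 1 (-1.72). *Cxxc4*, which encodes a CXXC protein that binds Tet2, was called higher in NO against GS (adjusted p = 0.0240, limma with Benjamini-Hochberg adjustment) at low values of 1, 0 and 0 (GS), 3, 3 and 0 (DM) and 4, 29 and 7 (NO). This call was lost without NO replicate 2 or 3 or GS replicate 2 or 3, and with quantile normalisation. *Prdm14*, a repressor of the de novo genes in naive mESC, stood at 1086, 987 and 1012 normalised counts in the GS libraries, 704, 660 and 646 in the DM libraries and 878, 443 and 943 in the NO libraries. Its DM and NO libraries lay below all GS libraries, yet it did not pass the test in DM against GS (log2 fold change -0.62 ± 0.24, adjusted p = 0.164, limma) or in NO against GS (-0.52 ± 0.24, adjusted p = 0.141, limma), where the value was -0.18 without NO replicate 2. *Hells*, a remodeller needed for normal methylation, overlapped between media in every pair (-0.07 ± 0.19 in DM against GS and -0.40 ± 0.19 in NO against GS).

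Of 14 germline genes whose promoters are known to be methylated in somatic cells, 7 were called higher in NO against GS (beside 10.1% of all genes), 6 in NO against DM (beside 6.78%) and 1 in DM against GS (beside 2.94%), and none lower, with median log2 fold changes of 1.26, 1.32 and 0.02. *Taf7l*, a testis paralogue of the transcription factor gene *Taf7*, stood at 4, 5 and 7 normalised counts in the GS libraries, 4, 8 and 3 in the DM libraries and 53, 321 and 115 in the NO libraries. It rose in NO against GS (log2 fold change 4.35 ± 0.59, adjusted p = 0.00102, limma with Benjamini-Hochberg adjustment) and against DM (4.48 ± 0.59, adjusted p = 0.00212), under all 18 alternatives. *Hormad1*, a meiotic chromosome axis gene, stood at 72, 110 and 147 in the GS libraries, 52, 67 and 50 in the DM libraries and 173, 420 and 262 in the NO libraries, and rose in NO against DM (2.24 ± 0.34, adjusted p = 0.00324, limma) and against GS (1.34 ± 0.34, adjusted p = 0.0170). NO replicate 2 was the highest library for both. *Dpep3* stood at 11, 17 and 13 in the GS libraries, 31, 21 and 30 in the DM libraries and 34, 175 and 59 in the NO libraries, and rose in NO against GS (2.31 ± 0.50, adjusted p = 0.00841, limma).

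*Dazl*, an RNA-binding gene of germ cells, stood at 160, 170 and 237 normalised counts in the GS libraries, 109, 107 and 51 in the DM libraries and 144, 265 and 226 in the NO libraries. It rose in NO against DM (log2 fold change 1.28 ± 0.32, adjusted p = 0.0248, limma) and overlapped between NO and GS. Its DM libraries lay below all GS libraries (-1.14 ± 0.32, adjusted p = 0.0603, limma), a difference that was not called. *Dazl* was called lower in DM against GS without NO replicate 1 (adjusted p = 0.0353, limma), without NO replicate 2 (0.0349) and with the 6 samples only (0.0486). Without NO replicate 2, the calls of *Slc25a31* (1.91), *Hormad1* (1.01) and *Ddx4* (0.82) in NO against GS and those of *Dazl* (1.09), *Ddx4* (1.03) and *Slc25a31* (1.54) in NO against DM were lost. Calls were also lost without NO replicate 3 (*Hormad1* and *Ddx4* against GS; *Dazl*, *Ddx4* and *Slc25a31* against DM). Of the calls against GS, that of *Slc25a31* was lost without GS replicate 3, that of *Hormad1* without GS replicate 1 or 2, and that of *Ddx4* without GS replicate 1 or 3 or DM replicate 1 or 2. Of the calls against DM, that of *Slc25a31* was lost without any GS library or DM replicate 1 or 2, that of *Dazl* without DM replicate 3, and that of *Ddx4* without any DM library. Settings other than omitted libraries also removed calls. With all alternatives counted, *Ddx4* kept its call against GS under 8 of 18 and against DM under 10 of 18. Against DM, *Slc25a31* kept its call under 6 of 17 and *Dazl* under 13 of 18. The calls of *Tex101* in NO against GS and against DM were not followed under the alternatives. *Asz1*, named after its values were seen, was not called in NO against DM (2.53, adjusted p = 0.0578, limma) but passed when replicate numbers were blocked (adjusted p = 0.0213, limma). *Mael*, the gene called in DM against GS (1.21 ± 0.33, adjusted p = 0.0480, limma with Benjamini-Hochberg adjustment), lost its call under 12 of 18 alternatives, among them the omission of GS replicate 2 or 3, of any DM library or of NO replicate 3. The summed level of the list was 3085, 2981 and 2941 in GS, 2562, 2829 and 3292 in DM, and 2571, 3918 and 3506 in NO, and did not separate the media. Its largest part in every library was *Rpl10l*, at 2349, 2064 and 1909 in GS, 1774, 2039 and 2686 in DM, and 1457, 1588 and 2018 in NO. The sum therefore does not describe the other genes of the list. Near copies of *Rpl10l* were not searched for, so its level is uncertain. The two-cell-like markers were higher in NO replicate 2 (915) than in NO replicates 1 and 3 (129 and 267), and their part in the values of the germline genes was not tested.

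None of 17 DNA replication genes and none of 11 mitosis genes was called in any comparison. The median log2 fold change of the replication genes was 0.04 in DM against GS, -0.26 in NO against GS and -0.29 in NO against DM, beside 0.01, -0.10 and -0.10 for *Dnmt1* and -0.17, -0.56 and -0.39 for *Uhrf1*, genes whose products act at the replication fork. *Pcna*, the sliding clamp, stood at 7767, 9005 and 10979 normalised counts in the GS libraries, 9582, 6692 and 8219 in the DM libraries and 8954, 4935 and 7607 in the NO libraries, and overlapped in every pair. The summed level of the replication genes was 119987 to 123087 in GS, 120944 to 134884 in DM and 111498, 93425 and 115194 in NO replicates 1 to 3, lowest in NO replicate 2, the library with the least *Uhrf1*. The part of this in the *Uhrf1* values was not tested. For mitosis genes, such as *Mki67*, the medians were -0.05, -0.09 and 0.02.

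The formative pluripotency genes, which come on as mESC leave the naive state, moved with the de novo genes in DM against GS, where 7 of 10 tested were called higher, beside 2.94% of all genes, and none lower (median log2 fold change 1.99). Of these calls, that of *Fgf15* was lost without GS replicate 2 or 3 or any DM library (log2 fold changes of 2.34 to 2.45), and that of *Fgf5* without GS replicate 2 or 3 or DM replicate 1 or 2. The call of *Tcf15* was not followed under the alternatives. *Otx2*, a transcription factor gene of the formative state, stood at 378, 314 and 392 normalised counts in the GS libraries, 1582, 1535 and 1685 in the DM libraries and 717, 219 and 485 in the NO libraries. It rose in DM against GS (2.15 ± 0.32, adjusted p = 0.00218, limma with Benjamini-Hochberg adjustment) and fell in NO against DM (-1.91 ± 0.32, adjusted p = 0.00527), as *Dnmt3a* was higher in the first and lower in the second. *Zic2*, with 91, 92 and 57 (GS), 318, 302 and 360 (DM) and 146, 101 and 171 (NO), had log2 fold changes of 2.05 ± 0.25 (adjusted p = 0.000625, limma) and -1.25 ± 0.25 (adjusted p = 0.00987) in the same comparisons. *Dusp6*, a target of ERK signalling, rose in DM against GS (2.36 ± 0.19, adjusted p = 7.21e-05, limma) and in NO against GS (1.85 ± 0.19, adjusted p = 0.00042). Its libraries held 300, 507 and 389 normalised counts (GS), 2090, 1755 and 2194 (DM) and 1356, 1282 and 1615 (NO), and it resembled *Dnmt3l* in lying between GS and DM in NO.

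In NO against DM, 5 formative genes were called lower, beside 1.77% of all genes, and none higher (median -1.14). Besides *Otx2* and *Zic2* these were *Lef1* (-2.75 ± 0.42, adjusted p = 0.00347, limma with Benjamini-Hochberg adjustment), *Fgf15* (-2.41 ± 0.50, adjusted p = 0.0113) and *Tead2* (-1.03 ± 0.22, adjusted p = 0.0139), the last outside the naming rule and named after its values were seen. The call of *Tead2* was not followed under the alternatives. In NO against GS, *Dusp6* and *Pou3f1* were called higher and *Lef1* lower, and the median was 0.59. The call of *Pou3f1* was lost without GS replicate 1 or 3 (log2 fold change of 1.11) and with quantile normalisation (0.73), and that of *Lef1* without GS replicate 1 (-1.55) or 2 (-1.68). *Fgf5* was listed at 0 in all GS libraries, at 22, 11 and 9 in DM, and at 0, 6 and 8 in NO. The called count over the 8 lists in DM against GS fell to 5 without GS replicate 2, GS replicate 3 or DM replicate 2 and to 6 without DM replicate 3.

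**Figure D4:**
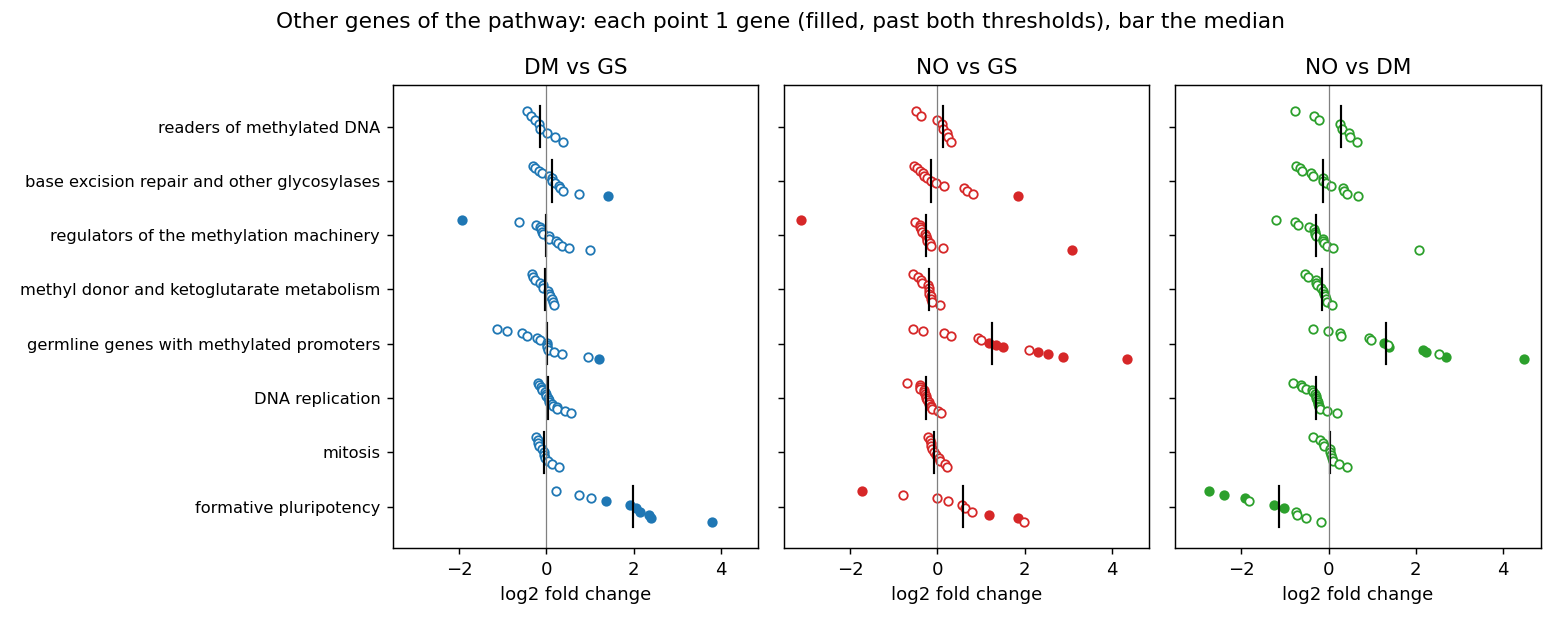
Log2 fold changes of (normalised count + 1) of the genes of 8 lists (rows) in the 3 comparisons. Each point is a gene, filled where it passed both thresholds, and the black bar is the median of the list. The germline genes lie to the right in both comparisons with NO (medians 1.26 and 1.32), and the formative genes lie to the right in DM against GS (1.99) and to the left in NO against DM (-1.14).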

How the data were processed

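Total RNA of 3 libraries per medium had been depleted of ribosomal RNA and sequenced on an Ion Torrent Proton instrument. The authors used Reaper for trimming, aligned to GRCm38 (mm10) with STAR 2.4.0a, counted over exons with featureCounts 1.4.5-p1, left out reads that were ambiguous by gene or position, and normalised with DESeq2. The deposited values are a score, namely normalised counts that the authors rounded to integers, so a count model was not fitted, although the study used one. A column with sums (1 column) was not used.

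Groups came from the medium given in the labels, and replicate numbers and table columns from the sample titles. Values were analysed as log2(value + 1), with a pseudocount of 1, for 18156 genes with a mean above 5, with limma 3.58.1 in R 4.3.3, the 3 media as groups, 1 fit of 9 samples, a mean-variance trend and Benjamini-Hochberg adjustment. The thresholds were those of the study (adjusted p under 0.05, log2 fold change of at least 1). Fold changes on this scale understate changes of low genes. The procedure was tested on simulated data. Precision is limited by 3 replicates and, for low genes, by depth.

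The 9 genes, the gene lists, the marker lists and the tests were chosen with earlier results of these data known. The named genes are the 9, up to 4 called genes per list and comparison with the smallest adjusted p, *Prdm14*, *Dppa3*, *Mbd4*, *Uhrf2*, *Hells*, *Dazl*, *Pcna* and *Fgf5*, and the 3 protein-coding genes most like each of the 9. The genes named for calls lost or kept or for their part in a sum, the ratios, and *Gm9855* were chosen after their values were seen. Coordinates and exon lengths are from GENCODE M21, near copies (at least 95% identity over 100 bases or more) from BLAST+ 2.17.0, and promoter windows from RefSeq.

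Replicate numbers recur in each medium. Deviations from the group means of same-numbered samples correlated at 0.159, 0.167 and 0.296 between NO and DM, all above 0.1. The main fit has no term for replicate number, so values of NO against DM are unpaired unless the replicate block is named. The correlations were -0.178, 0.022 and -0.232 between DM and GS and -0.046, 0.05 and -0.106 between NO and GS. The alternatives were other minimum means, pseudocounts, scalings and fold thresholds, no trend, 6 samples only, the replicate block, and each library left out. Other fold thresholds were applied to the counts of called genes only, and the alternatives given per gene leave them out.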

Additional observations from a re-analysis of the deposited data

How the results depend on the processing

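For the 9 genes, 479 of 486 log2 fold changes under alternatives kept their side of the thresholds. The 7 others were *Dnmt3l* in NO against GS, which passed both thresholds with equal totals (1.07), quantile normalisation (1.13), without GS replicate 2 (1.06) and without NO replicate 1 (1.05), *Dnmt3b* in NO against DM without NO replicate 1 (-1.03), and *Tet3* in NO against GS without GS replicate 3 (1.02) or NO replicate 2 (0.80). The sign of uncalled differences of *Dnmt1*, *Tdg*, *Tet1* (DM against GS), *Tet2* (both comparisons with NO), *Dnmt3b* (NO against GS) and *Tet3* (NO against DM) differed among alternatives. Quantile normalisation moved the median of all genes in NO against GS to -0.11 and the share of calls that were higher from 86.0% to 67.5% there, from 79.3% to 65.1% in NO against DM and from 69.9% to 62.4% in DM against GS. Where a count changed and no reason is named, the cause was not tested.

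Of the 9 genes, 2 were called in DM against GS (0 with a minimum log2 fold change of 2, and 2 without any 1 library), 1 in NO against GS (2 with equal totals, 2 with quantile normalisation, 3 with no minimum fold, 0 with a minimum of 2, 0 to 2 without 1 library) and 1 in NO against DM (3 with no minimum fold, 0 with a minimum of 2, 1 to 2 without 1 library). Over all genes, 763 were called in DM against GS (505 with a minimum mean of 50, which tests fewer genes, 1215 with no minimum fold, 242 with a minimum of 2, 509 to 962 without 1 library), 2127 in NO against GS (1206, 3640, 926, and 1455 to 2831) and 1552 in NO against DM (936, 2587, 660, and 806 to 2512, the lowest without NO replicate 2 and the highest without NO replicate 1, and 912 with the 6 samples only). Over the lists, 10 were called in DM against GS (5 with a minimum of 2, 5 to 11 without 1 library), 13 in NO against GS (7 with a minimum mean of 50, 22 with no minimum fold, 6 with a minimum of 2, 8 to 17 without 1 library, 8 without GS replicate 3) and 11 in NO against DM (7 without a trend, 7 with 6 samples, 20 with no minimum fold, 6 with a minimum of 2, 6 to 16 without 1 library, 6 without NO replicate 2, 7 without DM replicate 3 or NO replicate 3). The F test called 4227 genes (2569 to 5705 without 1 library, lowest without NO replicate 3) and 33 listed genes (17 without a trend, 18 to 41 without 1 library). With the replicate block, 1553 genes were called in NO against DM, and the block changed the call of none of the 9 genes. Of the listed genes, it added *Dppa3* and *Asz1* in NO against DM and *Asz1* in NO against GS (adjusted p = 0.0342, limma) and lost *Mael* in DM against GS (adjusted p = 0.0742, limma).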

Other observations

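A gene next to *Dnmt3b*, *Gm14490* (chr2:153696652-153729907, plus strand), was chosen after its values were seen, so its differences are described and not tested. It is annotated as a pseudogene in the deposited table, and RefSeq lists it as *Dnmt3b-ps1* with the synonym *Dnmt3c*, the name of a de novo methyltransferase gene of the rodent male germline. It stood at 1, 4 and 5 normalised counts in the GS libraries, 9, 6 and 3 in the DM libraries and 28, 130 and 42 in the NO libraries. All NO libraries lay above all others, with log2 fold changes of 3.80 ± 0.64 in NO against GS and 3.06 ± 0.64 in NO against DM. Without NO replicate 2 these were 3.17 ± 0.62 and 2.43 ± 0.62. The log2 fold change in DM against GS was 0.74 ± 0.64. In NO its level was highest in replicate 2, the library with the highest level of *Taf7l* (321) and of the two-cell-like markers (915), and lowest in replicate 1, with 53 and 129. *Dnmt3b* itself had its highest NO value in replicate 1 (2528).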
